A study of Mus musculus with 10 samples.

Results

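The genes described here encode the pore-forming and auxiliary subunits of potassium channels in RNA of the mouse ventral tegmental area, the midbrain source of dopamine for much of the forebrain. They were taken by symbol, as every gene whose name is Kcn followed by a subfamily letter and a number, leaving out antisense names and the 4 G protein-gated genes Kcnj3, Kcnj5, Kcnj6 and Kcnj9. Of 56691 genes in the count table, 89 symbols matched, and 75 had at least 10 counts in 5 or more of the 10 libraries. The other 14, among them Kcnq1, Kcne1 and Kcnj1, fell short of that minimum and are not described further. By their labels, all libraries came from male C57BL/6 mice of genotype WT and from dopaminergic neurons carrying a construct named NBL10-HA. Ribosome-bound RNA was enriched through this construct. The 5 Normal libraries had the treatment Ctrl, and the 5 restraint libraries had the treatment Acute Restraint for 30 min, a brief confinement that serves as a stressor. Age, pooling of animals, and the promoter or Cre line that drives the construct are not given in the sources used here. Nothing in the labels says that libraries of a group came from separate animals, so p-values measure the spread between these libraries.

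Potassium channels let potassium leave the cell, which ends action potentials, sets the resting potential and spaces one spike from the next. Voltage-gated (Kv) alpha subunits, calcium-activated channels, inward rectifiers and tandem-pore leak channels each form the pore, and auxiliary subunits change their gating or their delivery to the membrane. Midbrain dopamine neurons are known as slow pacemakers whose rhythm is shaped by an A-type current (Kcnd3 with Kcnip subunits), a small-conductance calcium-activated current (Kcnn3), ATP-sensitive channels (Kcnj11) and tandem-pore leak channels (Kcnk3, Kcnk9), while Kcnj10 and Kcnj16 are best known as channels of glia.

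What the pore-forming members share is the selectivity filter, and its coding sequence shows how the subfamilies differ. The filter was searched in the reading frame of the longest coding transcript of each gene (GENCODE M21, GRCm38) on the coding strand, as 5 codons in a row: one for threonine or serine, any codon, one for glycine, one for tyrosine, phenylalanine or leucine, and one for glycine. All 63 pore-forming members held a match and 0 of the 12 auxiliary members did, against 1095 of 21688 coding genes with other names (5.05%). The pattern is that of known potassium channel filters, so these counts describe the members and are not a test. All 10 Kcnk genes, which encode tandem-pore channels with a pair of pore loops in each subunit, held 2 matches. Kcna6 (codons 240 and 422) and Kcnh2 (codons 601 and 626) also held 2 matches of the pattern. Those at codons 240 and 601 had a leucine codon before the closing glycine codon. The other Kcna members had a tyrosine codon there, and the other Kcnh members a phenylalanine codon. The 2 matches in Kcna6 and in Kcnh2 are therefore not read as a pair of filters. The lines below give the coding strand, 5′ to 3′, with the 15 bases of the match in capitals and 3 codons on each side, for members that the results turn on.
Kcna2: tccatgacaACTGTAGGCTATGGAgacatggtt
Kcnc1: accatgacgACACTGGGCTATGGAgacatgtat
Kcnd1: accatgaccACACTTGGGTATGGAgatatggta
Kcnd3: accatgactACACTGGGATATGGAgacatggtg
Kcnh2, second match: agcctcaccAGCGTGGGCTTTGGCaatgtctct
Kcnf1: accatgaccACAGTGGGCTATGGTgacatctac
Kcnma1: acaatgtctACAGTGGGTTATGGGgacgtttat
Kcnj10: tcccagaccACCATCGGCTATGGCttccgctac
Kcnj11: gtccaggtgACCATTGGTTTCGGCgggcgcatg
Kcnk1, first match: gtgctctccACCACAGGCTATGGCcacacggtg
Kcnk1, second match: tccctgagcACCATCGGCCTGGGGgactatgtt
Of 61 genes whose bases were read, 45 had a tyrosine codon (TAT or TAC) as the fourth codon of at least 1 match. The 7 Kcnk genes among these 45 had it in the first match only, with a phenylalanine or leucine codon there in the second. The other 16 genes had it in no match. Those 16 were all 8 Kcnh genes, the ATP-sensitive subunits Kcnj11 and Kcnj8, the sodium-activated Kcnt1 and Kcnt2, Kcnu1, Kcnk2, Kcnk12 and Kcnk13. In GRCm38 the windows lie at chr3:107105215-107105247 for Kcna2 (forward strand), chr7:46427964-46427996 for Kcnc1 (forward) and chr5:24325546-24325578 for Kcnh2 (reverse). They lie at chr12:17175052-17175084 for Kcnf1 (reverse), chr14:23528404-23528436 for Kcnma1 (reverse), chr1:172369293-172369325 for Kcnj10 (forward) and chr7:46099487-46099519 for Kcnj11 (reverse). Each of these lies in 1 coding exon. The second Kcnk1 window also lies in 1 exon, at chr8:126025320-126025352 (forward). The first Kcnk1 window crosses an exon junction (chr8:125995799-126025028), as do those of Kcnd1 (chrX:7824947-7831187) and Kcnd3 (chr3:105459905-105658626). In all, 13 windows crossed a junction, those of the 3 Kcnd genes and the first match of each of the 10 Kcnk genes.

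Library totals ran from 56082358 to 86584968 counts. Potassium channel genes took 0.357 to 0.445% of the counts in Normal and 0.361 to 0.419% in restraint. All 10 dopamine neuron markers were detected, with Th, the rate-limiting enzyme of dopamine synthesis, at 411 ± 78.6 CPM in Normal (CPM, counts relative to the TMM-normalized library total; SD, n = 5), and so were all 8 astrocyte markers, with Gfap at 1919 ± 121 CPM. Of the GABA neuron markers, Gad1 stood at 549, Gad2 at 355 and Slc32a1 at 175 CPM in Normal. Slc17a6 and Slc17a7, markers of glutamate neurons, stood at 398 and 10.6 CPM in Normal. Unenriched RNA was not analysed here, so levels below are not assigned to a cell type, and fewer cells of a type cannot be told apart from less RNA per cell. In a principal component analysis of log2 CPM, restraint 1 had a score of 92.1 on the leading axis (22.6% of the variance), against -19.2 to 4.08 in the others.

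No potassium channel gene passed the test for a difference between restraint and Normal. Of 73 members tested, 0 passed an adjusted p of 0.05 (edgeR quasi-likelihood test, Benjamini-Hochberg over all 18440 genes), where 0.0217% of all genes did (0.00542% with higher and 0.0163% with lower values). An unadjusted p under 0.05 was reached by 5 members, Kcnj10 and Kcnj16 with higher and Kcne4, Kcnf1 and Kcnd1 with lower values in restraint, which is 6.85% of the 73 against 11.7% of all genes (5.64% higher and 6.04% lower). That count rested on single libraries: it was 2 without Normal 1, Normal 4 or restraint 3, 3 without Normal 3, Normal 5 or restraint 2, 4 to 7 without any of the other 4, and 3 with limma-voom. DESeq2 passed 0 of the 66 members to which it gave an adjusted p, where 2.03% of all genes passed, and limma-voom passed 0 of 73, where 0.0217% of all genes passed. Fold changes were spread evenly about 0, with 36 members positive and 37 negative (49.6% of all genes were positive) and a median log2 fold change of -0.003, against -0.002 over all genes. Without Normal 2 the members' median was 0.08. The precision was enough to bound most of these genes. The 95% interval of the fold change lay inside 1.5-fold in either direction for 55 of the 73 (75.3%, against 60.7% of all genes). Among members above 10 CPM it did so for 42 of 43, against 94.6% of all genes above that level.

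**Figure D1:**
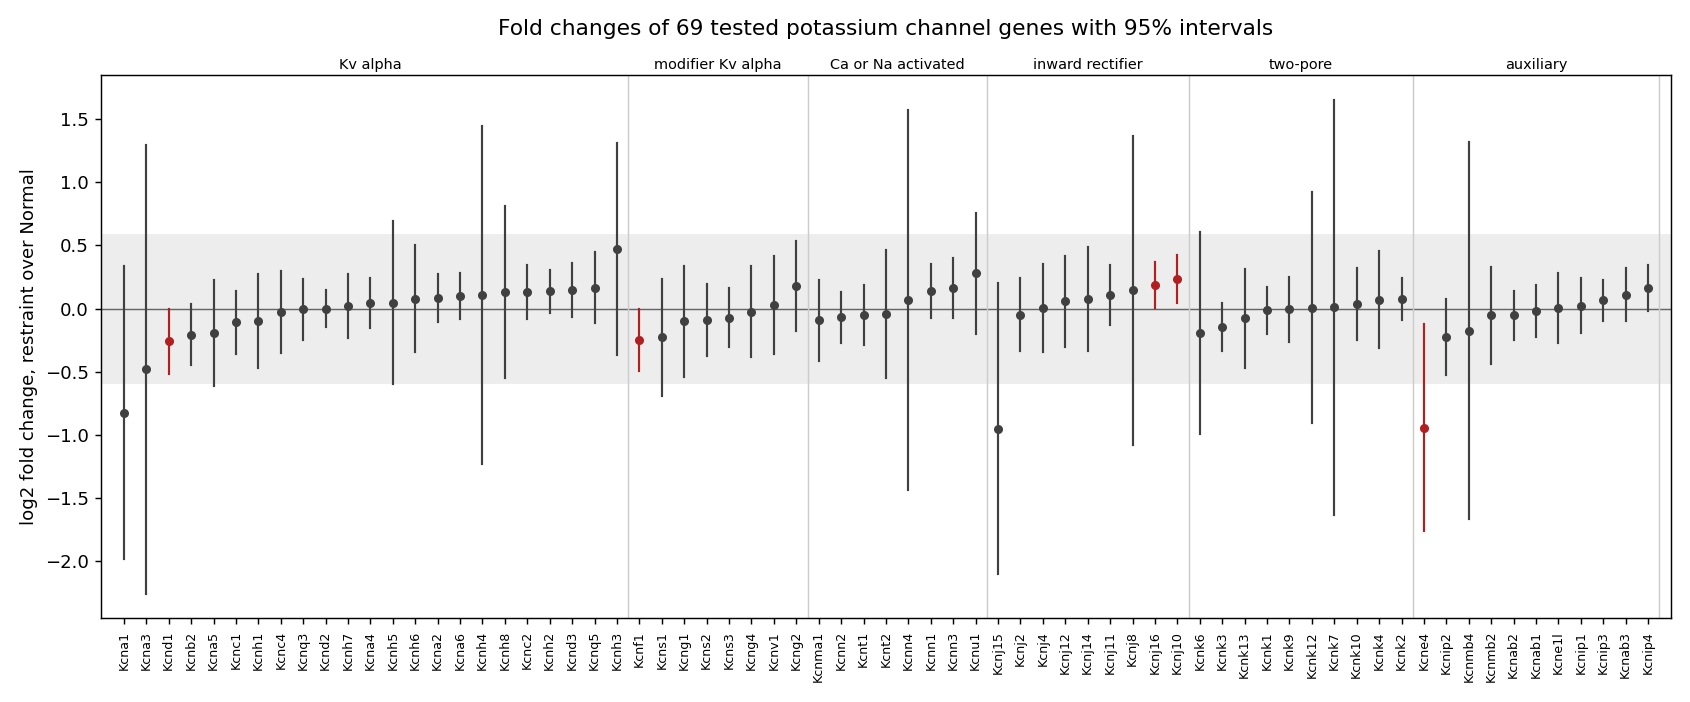
Log2 fold change of restraint over Normal (vertical axis) for 69 of the 73 potassium channel genes tested, ordered by role and then by value, with the 95% interval from the edgeR quasi-likelihood fit as a line and 1.5-fold in either direction as a grey band. Red marks the 5 genes with an unadjusted p under 0.05. The wide intervals belong to genes with few counts such as Kcnj15, Kcnj8 and Kcnmb4.

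Levels were compared between genes as CPM per kb of exon. The order in Normal was led by Kcnab2, a beta subunit of Shaker-type Kv channels, at 63.3 ± 9.50 CPM per kb (SD, n = 5), followed by Kcnj10 at 49.3 ± 4.62 and Kcnk1 at 38.2 ± 4.70. Kcna2 (33.4 ± 2.09), Kcnip4 (31.1 ± 1.76), Kcnab3 (30.4 ± 2.95), Kcnc4 (28.6 ± 8.49), Kcnc1 (21.6 ± 4.47) and Kcna6 (20.5 ± 2.31) came next on this per-kb scale. The bottom was held by Kcnj15 (0.0518 ± 0.0244) and Kcnv2 (0.0249 ± 0.0165), with Kcnn4 between them, named here after its value was seen. Neighbours in this order were rarely distinct. Of 74 neighbouring pairs, only Kcnj10 and Kcnk1 had Normal ranges that did not overlap. Summed per kb, Kv alpha subunits made up 37.9% of the total of all 75 genes in Normal and auxiliary subunits 28.9%. Inward rectifiers made up 13.2% and tandem-pore channels 11.6%. The modifier subunits of the Kcnf, Kcng, Kcns and Kcnv subfamilies made up 5.16%. Calcium- or sodium-activated channels, with Kcnu1 grouped among them, made up 3.29%. The total was 624 ± 50.9 CPM per kb in Normal and 637 ± 32.6 in restraint.

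**Figure D2:**
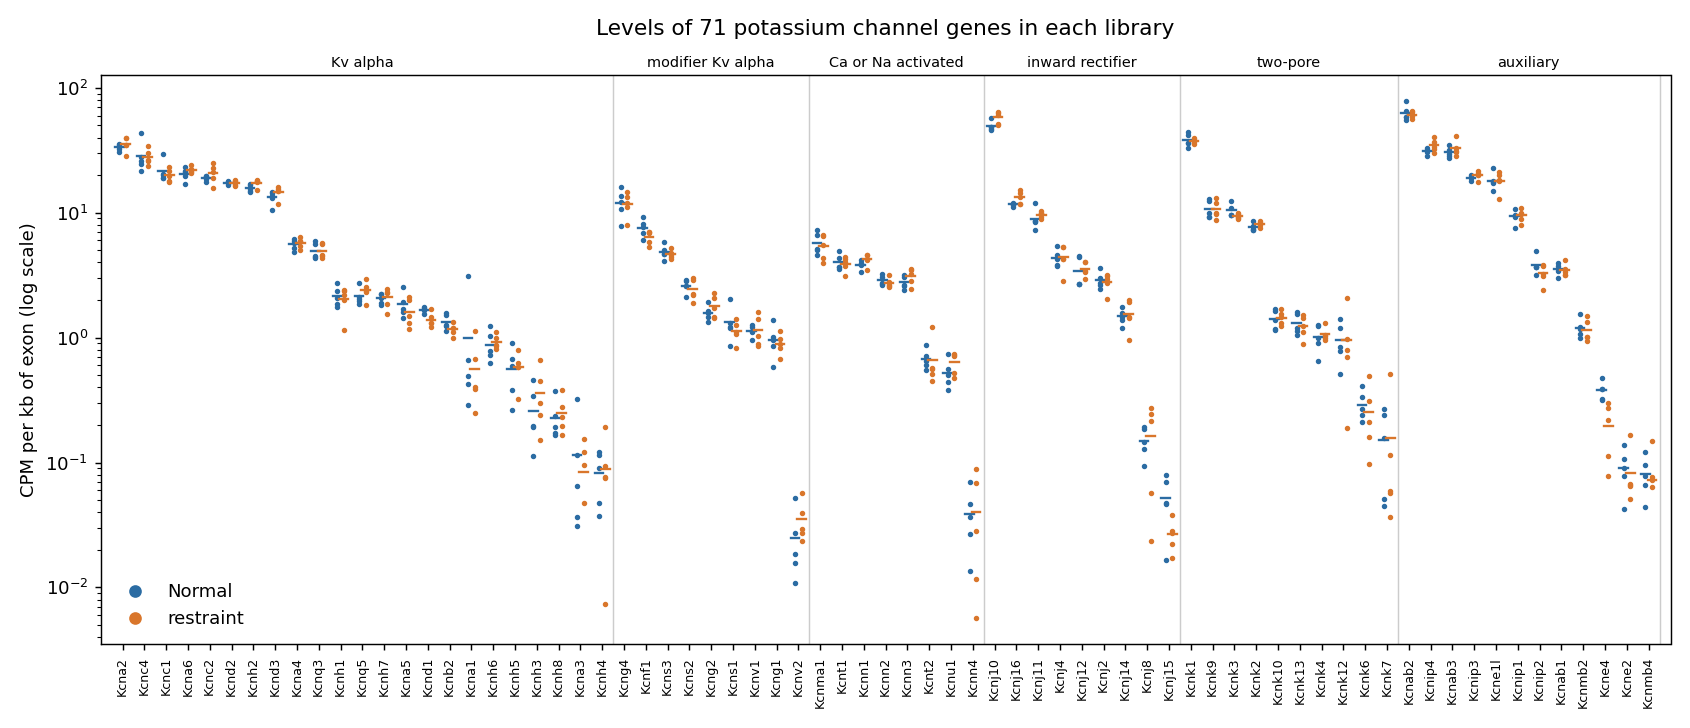
Level of 71 of the 75 genes in every library as CPM per kb of exon on a log axis, by role, with Normal in blue and restraint in orange, 1 dot per library and a bar at the group mean. Kcnab2, Kcnj10 and Kcnk1 stand at the top, and in every gene drawn but Kcne4 the ranges of both groups overlap; Kcna3 and Kcnmb4 had 1 library with 0 counts each, which a log axis cannot show.

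Among the Kv alpha subunits, which open on depolarization and repolarize the spike, 13 of 27 fold changes were positive, with a median of -0.00 on the log2 scale. Shaker-type (Kcna) subunits, found mostly in axons, were led by Kcna2. Its CPM were 425, 402, 362, 416 and 385 in Normal 1 to 5 and 339, 472, 470, 413 and 413 in restraint 1 to 5. The restraint values reached both below and above the Normal range, and the log2 fold change was 0.08 ± 0.09 (SE), with a 95% interval of -0.11 to 0.27. Kcna6, a second axonal Shaker-type subunit, stood at 122 ± 13.8 CPM in Normal and 131 ± 8.15 in restraint (log2 fold change 0.10 ± 0.09), with 39.6% of its exon bases shared with another annotated gene, so that its level is uncertain. The sum of the 6 Kcna genes was 62.4 ± 4.38 CPM per kb in Normal and 65.4 ± 3.46 in restraint. Kcnb2, a Shab-type delayed rectifier, went from 20.4 ± 2.89 to 17.7 ± 1.95 CPM (-0.21 ± 0.11, unadjusted p = 0.0875 with edgeR), with 4 of 5 restraint libraries below the Normal median.

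The Shaw-type subunits (Kcnc), whose rapid closing allows fast firing, made up 14.3% of the per-kb total of all members in Normal and had the widest spread there (89.1 ± 20.7 CPM per kb) of the 6 subfamilies with 10% or more of that total. Kcnc1 had 195, 279, 191, 179 and 179 CPM in Normal 1 to 5 and 168, 186, 204, 222 and 168 CPM in restraint 1 to 5. Normal 2 lay far above every other library. Its log2 fold change was -0.11 ± 0.12, and 0.03 without Normal 2. Kcnc4, which gives an inactivating current, had 98.8, 166, 108, 82.3 and 94.6 CPM in Normal and 99.3, 91.0, 116, 131 and 102 CPM in restraint (-0.03 ± 0.15, and 0.17 without Normal 2), with Normal 2 again the highest. Kcnc2 also had its highest Normal value in Normal 2, but only narrowly, at 141 CPM against 140 CPM in Normal 4. Its Normal values of 133, 141, 138, 140 and 126 CPM had a coefficient of variation of 4.53%, and its restraint values of 113, 136, 178, 153 and 164 CPM spread wider (0.13 ± 0.10). Kcna1, a Shaker-type subunit named here after its values were seen, was highest in Normal 2 as well, at 14.9 CPM against 1.38 to 3.16 CPM in the other Normal libraries and 1.19 to 5.35 CPM in restraint. Its log2 fold change of -0.82 ± 0.55 became 0.28 without Normal 2.

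Normal 2 was the highest Normal library for 40 of the 73 members tested (54.8%), where 26.1% of all genes tested had their highest Normal value there. Restraint 4 was the highest restraint library for 23 members (31.5%, against 19.9% of all genes). The median deviation of the members from their own means was 0.20 log2 units in Normal 2 and 0.10 in restraint 4, against -0.09 to 0.05 in the other 8 libraries. Several library measures moved with this in part. The slope of log2 CPM on log2 exon length, over 8510 other genes, was 0.065 per doubling of length in Normal 2 and 0.097 in restraint 4, but also 0.067 in restraint 1, where the members' median deviation was 0.02. The summed GABA neuron markers (3 genes, none at 0) were highest of the Normal libraries in Normal 2, at 1224 CPM against 866 to 1128. In restraint they did not follow the members, with the highest sum in restraint 5 (1261 CPM), where the members' median deviation was lowest, and 1083 CPM in restraint 4. The part of either measure in the high values was not tested.

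**Figure D3:**
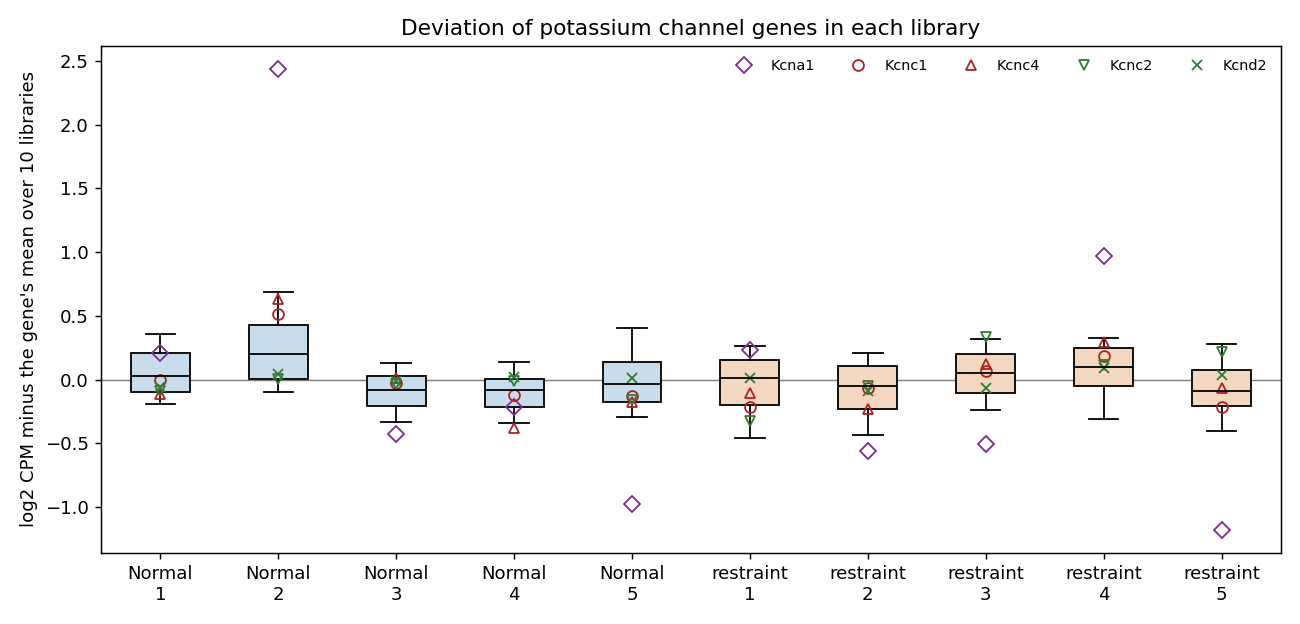
Deviation of log2 CPM from each gene's mean over the 10 libraries (vertical axis), as boxes over the 73 tested members per library with the median, the quartiles and whiskers at the 10th and 90th percentile; Normal boxes are blue and restraint boxes orange. The box of Normal 2 lies highest, and Kcna1, Kcnc1 and Kcnc4 lie above its median there, while Kcnc2 and Kcnd2 stay near 0 in that library.

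The Shal-type subunits (Kcnd) carry the A-type current, which opens below threshold and delays the next spike. Kcnd2 was among the steadiest members, with 86.1, 92.0, 88.5, 90.9 and 90.2 CPM in Normal and 90.4, 84.2, 85.6, 95.0 and 91.7 CPM in restraint. Its log2 fold change was -0.00 ± 0.07, with a 95% interval of -0.15 to 0.14. Kcnd3, the Shal-type subunit best known in dopamine neurons, had 139, 139, 101, 130 and 126 CPM in Normal and 155, 113, 149, 143 and 144 CPM in restraint. In 4 of 5 restraint libraries it lay above every Normal library, and restraint 2 lay below most of them (0.15 ± 0.10, interval -0.07 to 0.36). Kcnd1, the least abundant of the 3 per kb, had 9.24, 8.75, 8.21, 9.15 and 8.86 CPM in Normal and 6.38, 6.87, 6.95, 7.79 and 8.94 CPM in restraint. In 4 of 5 restraint libraries it was below every Normal library, and restraint 5 lay within the Normal range. Its log2 fold change was -0.26 ± 0.12 (edgeR unadjusted p = 0.0498, adjusted p = 0.427). Kcnd1 lies on chromosome X at 7688528 to 7704519 (GRCm39).

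The Kcnip genes encode calcium-binding subunits that bring Kcnd channels to the membrane and slow their inactivation. Kcnip4 had 116, 112, 119, 102 and 116 CPM in Normal and 118, 134, 122, 147 and 110 CPM in restraint. The 2 highest values were those of restraint 4 and restraint 2, and restraint 5 lay below the Normal median (0.16 ± 0.09, edgeR unadjusted p = 0.0777). Kcnip3 was 67.9 ± 2.95 CPM in Normal and 71.1 ± 5.43 in restraint (0.07 ± 0.08). Kcnip2 ran from 11.7 to 18.1 CPM in Normal, with the highest value in Normal 5, and from 8.80 to 14.1 CPM in restraint (-0.22 ± 0.14). The 4 Kcnip genes summed to 63.5 ± 2.80 CPM per kb in Normal and 67.7 ± 4.67 in restraint, and the 3 Kcnd genes to 32.3 ± 1.79 and 33.4 ± 2.32.

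The Kcnq genes encode the M current, a slow brake on repeated firing. Of them, Kcnq3 stood at 73.2 ± 11.4 CPM in Normal and 72.8 ± 9.96 CPM in restraint (-0.01 ± 0.11). Among the ether-a-go-go type (Kcnh) subunits, 7 of 8 fold changes were positive (49.6% of all genes were), with a median of 0.09. Of the 8, 0 had an unadjusted p under 0.05 in edgeR, against 11.7% of all genes. Their median SE was 0.25, against 0.14 over all genes, and 4 of the 8 intervals lay inside 1.5-fold in either direction. Kcnh2, an ether-a-go-go-related channel that closes slowly after a spike, was the most abundant of them per kb. Its CPM were 72.7, 82.9, 71.1, 75.6 and 80.9 in Normal and 88.6, 86.3, 87.2, 86.0 and 73.1 in restraint. The first 4 restraint libraries lay above every Normal library and restraint 5 did not (0.14 ± 0.08, interval -0.03 to 0.30). Kcnh1 was 15.9 ± 2.91 and 14.8 ± 3.81 CPM (-0.10 ± 0.18) and was the 1 negative member.

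Modifier subunits form no working channel by themselves and change the Kcnb channels they join. Of 8 tested, 2 fold changes were positive and 6 negative (49.6% of all genes were positive). The median of -0.08 became 0.04 without Normal 2. Kcnf1, on chromosome 12 at 17222101 to 17226889 (GRCm39), had 44.4, 36.7, 29.2, 33.2 and 38.7 CPM in Normal 1 to 5 and 32.8, 25.4, 33.5, 33.6 and 28.2 CPM in restraint 1 to 5. All 5 restraint values lay below the Normal median, and the groups overlapped through Normal 3 and Normal 4. The log2 fold change was -0.25 ± 0.11 with a 95% interval of -0.49 to -0.01 (edgeR unadjusted p = 0.0455, adjusted p = 0.416). Kcng4, the most abundant modifier per kb, went from 45.8 ± 11.7 to 45.1 ± 9.67 CPM (-0.02 ± 0.17). Kcns3, which is known from dopamine neurons and from fast-spiking cells, had 15.5 ± 2.02 and 14.7 ± 1.15 CPM (-0.07 ± 0.11), Kcns2 14.6 ± 1.70 and 13.7 ± 2.65 CPM (-0.09 ± 0.14), and Kcng2 4.74 ± 0.68 and 5.37 ± 1.11 CPM (0.18 ± 0.17). Kcnv1 stood at 5.21 ± 0.56 and 5.31 ± 1.54 CPM (0.03 ± 0.18). The summed level of all 9 modifiers was 32.2 ± 3.90 CPM per kb in Normal and 30.4 ± 1.83 in restraint.

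Channels opened by calcium or sodium ions end bursts and set the pause after a spike. Of the 8 genes grouped here, which take in the pH-sensitive Kcnu1, 4 fold changes were positive (49.6% of all genes were). An unadjusted p under 0.05 in edgeR was reached by 0 of them, against 11.7% of all genes. Kcnma1, the large-conductance channel, had 112, 124, 78.1, 86.4 and 85.7 CPM in Normal and 112, 66.8, 92.9, 111 and 73.5 CPM in restraint. The ranges overlapped, with restraint 2 and restraint 5 below every Normal library and Normal 2 above every restraint library, and the log2 fold change was -0.09 ± 0.15. Kcnn3, the small-conductance channel that steadies pacemaking in dopamine neurons, had 32.1, 32.9, 25.3, 27.0 and 27.8 CPM in Normal and 34.0, 25.7, 37.2, 36.5 and 29.5 CPM in restraint. In 3 of 5 restraint libraries it exceeded every Normal library, and restraint 2 lay near the Normal minimum (0.17 ± 0.11, interval -0.07 to 0.40). Its relatives Kcnn1 (17.7 ± 1.41 and 19.5 ± 2.08 CPM, 0.14 ± 0.10) and Kcnn2 (21.5 ± 1.95 and 20.5 ± 1.83 CPM, -0.07 ± 0.10) bracketed 0. Per kb the 3 were close, at 3.85 ± 0.31 for Kcnn1, 2.88 ± 0.26 for Kcnn2 and 2.77 ± 0.32 for Kcnn3 in Normal. The sodium-activated channel Kcnt1 stood at 38.5 ± 5.64 and 37.1 ± 4.87 CPM (-0.05 ± 0.11), and its relative Kcnt2 at 4.75 ± 0.89 and 4.60 ± 2.17 CPM (-0.04 ± 0.24), with 8.44 CPM in restraint 1 against 3.13 to 3.96 in the other restraint libraries. Kcnu1, a pH-sensitive channel best known from sperm, was detected at 1.96 ± 0.51 and 2.37 ± 0.47 CPM (0.28 ± 0.23).

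Inward rectifiers, which pass potassium near the resting potential, had 7 of 9 positive fold changes (49.6% of all genes were positive), with a median of 0.07 on the log2 scale. They held both members with higher values at an unadjusted p under 0.05, Kcnj10 and Kcnj16. That is 2 of 9 (22.2%) but also 2 of all 73 members tested, against 5.64% of all genes with higher values. The subfamily was not tested as a set. No other inward rectifier reached an unadjusted p under 0.05 in either direction. Kcnj10, the main potassium channel of astrocytes, which takes up potassium released by firing neurons, had 310, 263, 252, 247 and 262 CPM in Normal 1 to 5 and 331, 278, 345, 342 and 274 CPM in restraint 1 to 5. Every restraint library lay above 4 of the Normal libraries, and Normal 1 lay within the restraint range. The log2 fold change was 0.23 ± 0.09 with an interval of 0.05 to 0.42 (edgeR unadjusted p = 0.0177, adjusted p = 0.298), the smallest p of all members. Kcnj16, which joins Kcnj10 in mixed channels sensitive to pH, had 43.9, 46.3, 46.1, 47.1 and 45.7 CPM in Normal and 46.2, 52.3, 56.4, 59.9 and 45.9 CPM in restraint. Restraint 2, 3 and 4 exceeded all Normal libraries, and restraint 1 and 5 lay within the Normal range (0.19 ± 0.09, edgeR unadjusted p = 0.0483, adjusted p = 0.421). Kcnj10 lies on chromosome 1 at 172168777 to 172201652 and Kcnj16 on chromosome 11 at 110858859 to 110918794 (GRCm39).

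The 8 astrocyte markers summed to 3863 to 4429 CPM in Normal and 4432 to 5569 CPM in restraint. These sums did not overlap, but those of the 7 markers other than Gfap did, at 2094 to 2429 CPM and 2247 to 2769 CPM, a check chosen after seeing the data. Of the 8, 7 had positive fold changes (49.6% of all genes did), with a median of 0.22 on the log2 scale, and none was at 0. In edgeR 3 had an unadjusted p under 0.05, against 11.7% of all genes. With edgeR or limma-voom 0 passed the adjusted threshold, where 0.0217% of all genes did with either. DESeq2 passed 1 of them, where 2.03% of all genes passed. This was Gfap, the filament protein of astrocytes, at an adjusted p of 0.0148 (edgeR adjusted p = 0.118). Gfap stood at 1919 ± 121 CPM in Normal and 2471 ± 316 CPM in restraint. Every restraint library lay above every Normal library, as for 1.25% of all genes. Restraint 3, with the highest Kcnj10, had an astrocyte sum of 4498 CPM, and restraint 1 had the highest sum. The part of astrocyte RNA in the Kcnj10 and Kcnj16 values was not tested. The 9 inward rectifiers together summed to 82.3 ± 5.57 CPM per kb in Normal and 93.5 ± 8.59 in restraint, most of it Kcnj10.

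**Figure D4:**
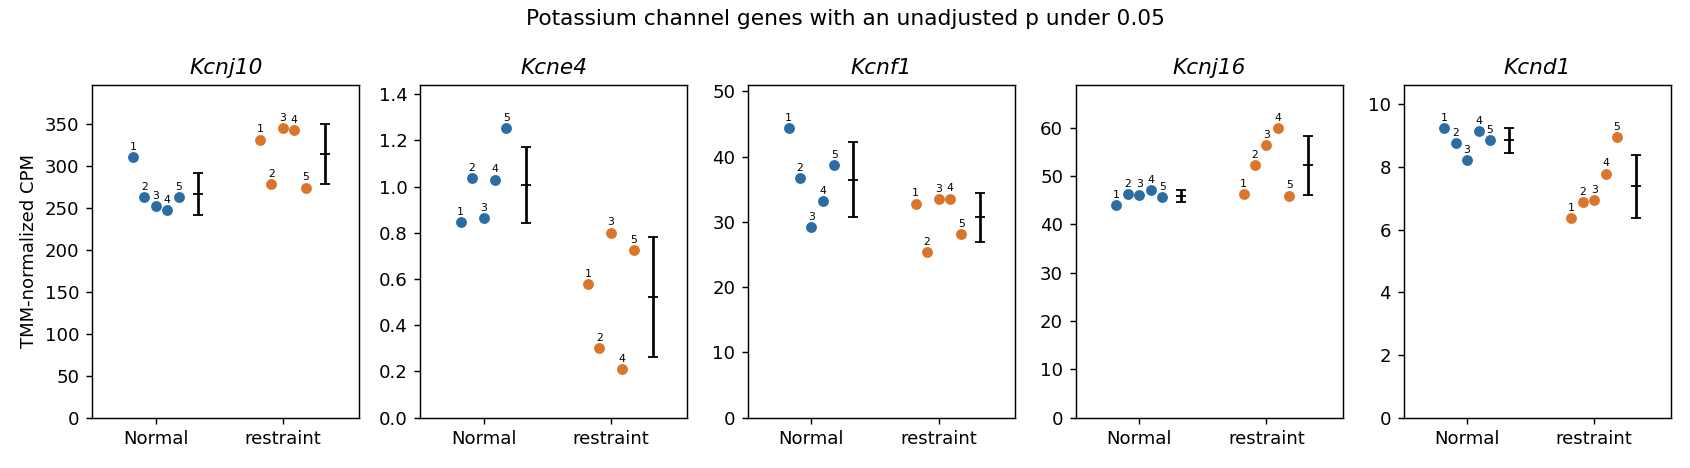
TMM-normalized CPM of the 5 members with an unadjusted p under 0.05, 1 panel per gene with its own axis from 0; dots are libraries marked by replicate number, and the black bars give the mean and SD (n = 5 per group). Only the Kcne4 groups do not overlap; Kcnj10 and Kcnj16 lie higher and Kcne4, Kcnf1 and Kcnd1 lower in restraint.

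Kcnj11, the pore of the ATP-sensitive channel that couples firing to cell energy in dopamine neurons, had 31.0, 43.8, 27.0, 31.6 and 31.3 CPM in Normal and 32.9, 33.8, 38.0, 36.6 and 36.8 CPM in restraint. All 5 restraint values lay above 4 of the Normal values, and Normal 2 lay above all of them. The log2 fold change of 0.11 ± 0.11 became 0.24 without Normal 2. Kcnj8, the ATP-sensitive pore of vascular cells, was near the detection limit at 0.38 ± 0.10 and 0.42 ± 0.29 CPM, and its interval of -1.08 to 1.37 bounds little. Kcnj15 was at 0.33 ± 0.15 and 0.17 ± 0.05 CPM (-0.95 ± 0.54), the most negative fold change of all members, with an edgeR unadjusted p of 0.0991. The vascular markers (6 genes, none at 0) summed to 10.8 to 16.4 CPM in Normal and 13.3 to 21.2 CPM in restraint. Of the 6, 5 had positive fold changes (49.6% of all genes did), with a median of 0.35 on the log2 scale. In edgeR 3 had an unadjusted p under 0.05, against 11.7% of all genes. With edgeR, limma-voom or DESeq2, 0 passed the adjusted threshold. The part of vascular RNA in the Kcnj8 values was not tested.

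Tandem-pore (Kcnk) channels carry the background leak that sets the resting potential. Their 10 fold changes divided evenly, 5 positive and 5 negative, between -0.19 and 0.08 on the log2 scale. Kcnk1, the most abundant per kb, had 80.3, 92.9, 99.8, 80.1 and 74.2 CPM in Normal and 79.9, 86.2, 85.3, 89.4 and 82.6 CPM in restraint. The restraint values lay wholly within the Normal range, and the log2 fold change was -0.01 ± 0.09 (interval -0.20 to 0.17). The acid-sensitive leak channels Kcnk3 and Kcnk9 can join in 1 channel and are known in aminergic neurons. Kcnk9 had 154, 159, 113, 122 and 114 CPM in Normal and 123, 120, 147, 162 and 108 CPM in restraint (-0.00 ± 0.12). Kcnk3 had 43.7, 49.3, 38.2, 38.0 and 38.1 CPM in Normal and 35.6, 39.5, 36.8, 39.1 and 36.3 CPM in restraint (-0.15 ± 0.09, interval -0.34 to 0.04). Per kb the pair stood level, at 10.8 ± 1.82 for Kcnk9 and 10.4 ± 1.26 for Kcnk3 in Normal. All 10 Kcnk genes summed to 72.2 ± 6.55 CPM per kb in Normal and 71.3 ± 3.45 in restraint.

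Of the auxiliary subunits, 5 of 11 fold changes were positive. Kcnab2, the most abundant member per kb, had 383, 551, 408, 457 and 410 CPM in Normal and 412, 395, 450, 453 and 420 CPM in restraint. Normal 2 was again the highest library, and the log2 fold change of -0.05 ± 0.09 became 0.04 without it. Kcnab3 stood at 87.2 ± 8.45 and 94.1 ± 13.9 CPM (0.11 ± 0.10). The Kcne genes encode single-span subunits that join many Kv channels. Kcne4, known for damping Kv currents, had 0.85, 1.04, 0.86, 1.03 and 1.25 CPM in Normal and 0.58, 0.30, 0.80, 0.21 and 0.72 CPM in restraint. Every restraint value lay below every Normal value, the 1 member of 73 for which the groups did not overlap (2.61% of all genes in either direction and 1.36% with restraint lower). These values rest on few counts, 54 to 78 per Normal library and 14 to 62 per restraint library, with each mate counted. The log2 fold change was -0.94 ± 0.39 with an interval of -1.76 to -0.12 (edgeR unadjusted p = 0.0266, adjusted p = 0.342). Kcne4 lies on chromosome 1 at 78794475 to 78797745 (GRCm39). Kcne1l was steady at 27.8 ± 4.39 and 27.9 ± 4.88 CPM (0.01 ± 0.13). The calcium-activated channel's beta subunits were scarce. Kcnmb2 stood at 3.76 ± 0.66 and 3.62 ± 0.75 CPM (-0.05 ± 0.18), and Kcnmb4 at 0.27 ± 0.10 and 0.24 ± 0.17 CPM, where 31.5% of its exon bases are shared with antisense genes.

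The 28 partner genes listed for these channels, which encode scaffolds, regulators and further subunits, were read from the same fit. Of 27 tested, 0 passed with edgeR or limma-voom, where 0.0217% of all genes did with either. DESeq2 passed 0 of 26, where 2.03% of all genes passed. Fold changes were positive for 16 and negative for 11 (49.6% of all genes were positive), and the median was 0.05 on the log2 scale. At an unadjusted p under 0.05 stood Dpp6, a transmembrane subunit of Kcnd channels, with higher values, and Dlg1, a scaffold that clusters Kcna channels, with lower ones. This is 7.41% of the 27 tested, a smaller share than the 11.7% of all genes. Dpp6 had 287, 333, 256, 266 and 308 CPM in Normal and 325, 300, 384, 377 and 299 CPM in restraint. Restraint 3 and 4 exceeded all Normal libraries and the other 3 lay within their range (0.22 ± 0.09, edgeR unadjusted p = 0.0348, adjusted p = 0.378). Dpp10, the relative of Dpp6, stood at 116 ± 5.34 and 110 ± 11.5 CPM (-0.07 ± 0.08). Dlg1 had 83.4, 69.9, 66.0, 75.0 and 71.2 CPM in Normal and 68.3, 57.1, 60.2, 61.3 and 72.1 CPM in restraint, with 4 of 5 restraint values below the Normal median (-0.20 ± 0.09, edgeR unadjusted p = 0.0411, adjusted p = 0.398). Akap5, a kinase anchor at Kcnq channels, stood at 19.3 ± 1.89 and 22.7 ± 3.55 CPM (0.23 ± 0.12, edgeR unadjusted p = 0.0624). Abcc8, the sulfonylurea receptor that completes the ATP-sensitive channel of neurons, stood at 8.62 ± 1.73 and 9.02 ± 1.26 CPM (0.06 ± 0.15).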

How the data were processed

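Ribosome-bound RNA of 5 Normal and 5 restraint libraries was sequenced, with groups and replicates as the titles of the samples give them. The deposited file holds whole-number counts per gene and library, made by the authors with featureCounts 2.0.3 on exons of GENCODE M30 (GRCm39), per the file headers. Its command line asks for paired-end input but neither strand nor pair counting, so each mate was counted and overlapping antisense genes cannot be told apart. FastQC, Trimmomatic, STAR and the build mm10 are named without versions, per the submitters' processing notes. Exon lengths are those deposited beside the counts. Symbols (52073 genes) and coding sequences came from GENCODE M21 (GRCm38). No value column lacked a sample (0).

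Genes were kept by filterByExpr (minimum count 10, total 15), normalized by TMM and tested with edgeR 4.0.16 (glmQLFit, glmQLFTest, group only; R 4.3.3), adjusted by Benjamini-Hochberg over 18440 genes with a threshold of 0.05; the median SE of a log2 fold change was 0.136. Kcne2 and Kcnv2 were not kept. The script was tested on simulated data. DESeq2 1.42.0, limma-voom (limma 3.58.1), other scalings and filters, halved counts, a length-trend correction (lowess span 0.3), a replicate block and leaving out each library were alternatives. Figures used Python 3.11.15. Reads shared with overlapping genes were not assigned. This touches 21 members, 7 of them over more than 10% of exon bases (among them Kcna6 39.6%, Kcnmb4 31.5%, Kcna3 27.6%, Kcnk4 13.1%, Kcnk2 12.2%, Kcnn2 10.8%).

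Even numbers made up 76.8 to 79.8% of the counts between 1 and 30 in Normal, and 80.0 to 84.8% in restraint. The members and lists were chosen with earlier results of these data known. Named members are the 8 with the smallest p in each direction, the 2 with the highest level per kb in each subfamily and 16 chosen for their place in dopamine neurons or glia; of the partner genes Abcc8, Dpp6, Dpp10 and the 3 with the smallest p are named. Some members that this rule picks, and some sequences, are not reported here. Marker lists were dopamine neuron, astrocyte, oligodendrocyte, oligodendrocyte precursor, microglia, vascular, GABA neuron, glutamate neuron, and choroid plexus and ependyma.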

Additional observations from a re-analysis of the deposited data

Results flagged for a closer look

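In 6 of 96 combinations of a named gene and a group, 1 library lay outside the other 4 by Dixon's test at 95%, or 6.25%, where chance alone picks about 1 in 20. Kcna1, named after its values were seen, was left out of this count. Normal 2 was the library in 2 of the 6. There Kcnc1 had 279 CPM against 179 to 195 in the other Normal libraries, and Kcnj11 had 43.8 CPM against 27.0 to 31.6. Kcnj10, the astrocyte channel, was high in Normal 1, at 310 CPM against 247 to 263 in the other Normal libraries. Kcnip2 was high in Normal 5, at 18.1 CPM against 11.7 to 13.5. In restraint, Kcnh2 was low in restraint 5, at 73.1 CPM against 86.0 to 88.6, and Kcnt2 was high in restraint 1, at 8.44 CPM against 3.13 to 3.96.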

How the results depend on the processing

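Under all 21 alternatives 0 members and 0 partner genes passed the threshold (DESeq2 gave 66 of the 73 members an adjusted p), while the number of all genes that passed ran from 0 (robust dispersion, the replicate block, and without Normal 1, 2, 3 or 4 or restraint 3 or 4) to 302 (DESeq2, and also the filter of at least 1 count), from 4 as reported. It was 17 with library size only, 77 with the length trend removed and 92 without restraint 5. Members at an unadjusted p under 0.05, 5 as reported, numbered 3 with the CPM filter, 3 with limma-voom and 2 to 7 when 1 library was left out (2 or 3 without Normal 1, 3, 4 or 5 or restraint 2 or 3). Of the first 10 genes per kb, 6 were among the first 10 by CPM without division by length. When 1 library was left out, the median log2 fold change ran from -0.071 to 0.044 for auxiliary subunits and from -0.12 to 0.041 for modifiers, the highest value without Normal 2 in both. The cause of these shifts was not tested. Genes with few counts limit the precision, as for Kcnj8, Kcnj15, Kcnmb4 and Kcne4.

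Same-numbered libraries did not resemble each other in their deviations. The correlations ran from -0.16 to 0.027, 0 of 5 pairs exceeded 0.1 and 0 of 10 libraries correlated best with their own number. Whether same-numbered libraries were collected or processed together is not given in the labels, and these correlations cannot show it. With the replicate number as a block 2 members had an unadjusted p under 0.05. Kcnc4 stood at 0.0063, Kcnj8 at -0.19 and Kcnv1 at -0.011 on the log2 scale with the block, against 0.00071, -0.20 and -0.0099 with limma-voom, each of the other sign than reported. Kcne1l stood at -0.0025 with library size only and -0.0018 with the CPM filter.

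Of 48 named genes tested, 28 kept their sign under every alternative that gave a value. The log2 fold changes of 20, none of them at an unadjusted p under 0.05, took the other sign when some library was left out. Their ranges were -0.011 to 0.17 for Abcc8, -1.22 to 0.28 for Kcna1, -0.094 to 0.044 for Kcnab2, -0.17 to 0.033 for Kcnc1, -0.12 to 0.17 for Kcnc4, -0.020 to 0.013 for Kcnd2, -0.063 to 0.11 for Kcne1l, -0.15 to 0.10 for Kcng4, -0.17 to 0.046 for Kcnh1, -0.14 to 0.41 for Kcnj8 and -0.068 to 0.056 for Kcnk1. They were -0.083 to 0.076 for Kcnk9, -0.17 to 0.016 for Kcnma1, -0.15 to 0.062 for Kcnmb2, -0.60 to 0.15 for Kcnmb4, -0.060 to 0.074 for Kcnq3, -0.12 to 0.0070 for Kcns3, -0.10 to 0.037 for Kcnt1, -0.37 to 0.075 for Kcnt2 and -0.12 to 0.11 for Kcnv1.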

Other observations

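Markers of 6 further cell types were summed per library and are given as values. The 10 dopamine neuron markers summed to 1047 to 1559 CPM in Normal and 1244 to 1753 CPM in restraint, with 8 positive fold changes and 5 at an unadjusted p under 0.05 (edgeR), where 11.7% of all genes tested reached it. DESeq2 passed 2 of the 10, the transcription factors En1 (adjusted p = 0.000418) and Foxa2 (adjusted p = 0.0207), where 2.03% of all genes passed, while their edgeR adjusted p were 0.0662 and 0.144. En1 stood at 37.2 ± 5.91 CPM in Normal and 55.1 ± 4.89 CPM in restraint (SD, n = 5). Its restraint libraries all lay above every Normal library, as for 1.25% of all genes. The 7 oligodendrocyte markers ran from 1574 to 1924 CPM in Normal and from 1498 to 2091 CPM in restraint. The 2 glutamate neuron markers ran from 395 to 431 CPM in Normal and from 340 to 478 CPM in restraint. The other sums were lower. Oligodendrocyte precursor markers (3 genes) summed to 104 to 148 CPM and 117 to 155 CPM, choroid plexus and ependyma markers (3 genes) to 31.5 to 49.7 CPM and 27.8 to 49.4 CPM, and microglia markers (6 genes) to 13.6 to 24.5 CPM and 15.5 to 21.1 CPM. In each of these 6 lists the sums of both groups overlapped, 0 markers passed the adjusted threshold with edgeR or limma-voom, none but En1 and Foxa2 passed with DESeq2, and none was at 0 counts over all libraries.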
